A study of Mus musculus with 6 samples.

Results

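The vascular endothelial growth factor (VEGF) and angiopoietin ligands and receptors of mouse glomeruli were described across 6 RNA sequencing libraries. The members were the rows of the deposited table whose gene symbol is Vegfa, Vegfb, Vegfc, Pgf, Flt1, Kdr, Tek, Angpt1 or Angpt2, which is 9 genes of 24035 named rows, and all 9 were found. The knockout group held 3 libraries of glomeruli from Podocin-Cre Klf4 fl/fl mice and the control group 3 libraries from Klf4 fl/fl mice, all on the FVB/N strain. Floxed Klf4 alleles were thus carried by both groups. The podocin promoter drives Cre in podocytes. There was no group with Cre and intact Klf4, so what Cre does and what Klf4 loss does cannot be told apart. The labels give neither ages nor whether each library came from its own animal, so the p-values reflect spread among libraries, which may be technical.

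Glomerular capillaries are kept open and fenestrated by signals between neighbouring cells. Podocytes, the epithelial cells outside the capillary, secrete VEGF-A, which crosses the basement membrane and acts on VEGFR2 (Kdr) and VEGFR1 (Flt1) of the endothelium. A second system runs in parallel: angiopoietin 1 activates the endothelial receptor TIE2 (Tek) and steadies the vessel, while angiopoietin 2, stored and released by endothelial cells, opposes it in many settings. The comparison asks how these transcripts stood in glomeruli whose podocytes were meant to lack Klf4, a zinc-finger transcription factor.

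Levels are RPKM, read counts scaled for gene length and library depth, so they can be set side by side between genes. A log2 change is the difference of the group means of log2(RPKM + 0.5), knockout minus control. It understates changes of genes with low RPKM. Adjusted p-values are from limma with Benjamini-Hochberg adjustment over 13912 genes. Counted reads per library ranged from 38936993 to 58272424. Library pairs correlated at 0.969 to 0.981 within a group and at 0.891 to 0.949 between groups. Klf4 itself stood at 29.4, 40.3 and 41.4 RPKM in knockout libraries and at 21.5, 44.3 and 49.8 RPKM in control libraries (log2 change 0.015, SE 0.31, adjusted p = 0.979). Its sign turned under both other scalings. Cre leaves the gene intact in cells other than podocytes, so this value does not check the labels, and knockout and control mean the libraries labelled so. Of all genes tested, 1389 (9.98%) were higher and 484 (3.48%) lower in knockout libraries, 13.5% together, and the median log2 change was 0.097. Median-of-ratios scaling gave 1077 higher and 702 lower, and quantile normalization 849 and 798, with medians of −0.0038 and −0.048.

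One member passed the test, Vegfa, and it fell. All 9 members passed the expression filter, so 1 of 9 was called lower and 0 higher, against 3.48% and 9.98% of all genes. The median log2 change of the members was −0.32, with 4 positive and 5 negative values. The unadjusted p was below 0.05 for 4 of them, Vegfa, Angpt1, Flt1 and Kdr. Groups did not overlap for Vegfa and Kdr, both lower in knockout libraries, and for Angpt1, higher in knockout libraries. All 9 kept the sign of their change under every alternative in which they were tested. Among all genes tested, 11.4% were separated that way with the knockout lower and 23.7% with the knockout higher, 35.1% in either direction.

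**Figure D1:**
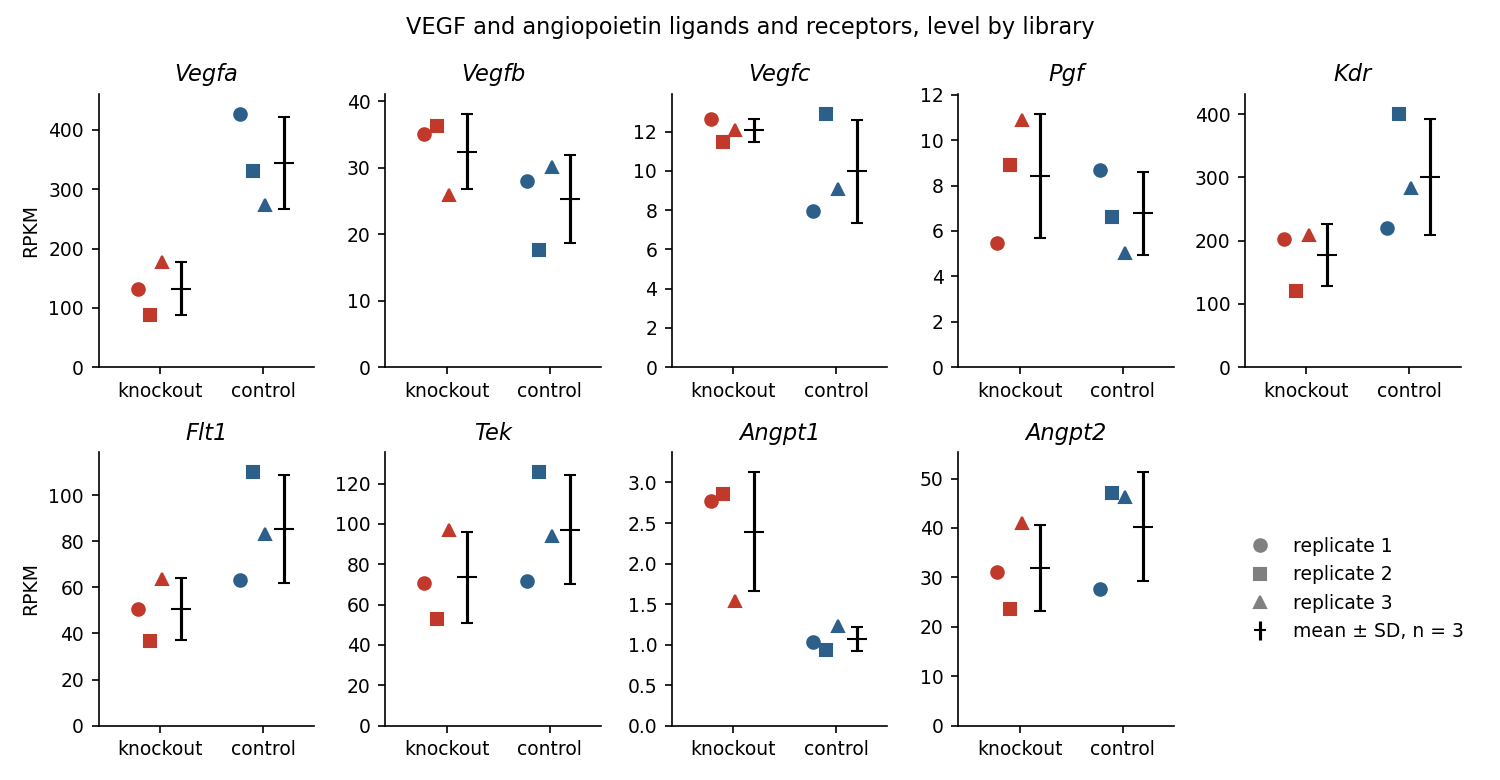
RPKM of the 9 members (y axis, from 0, with its own scale per gene) in knockout and control libraries, 1 symbol per library, with the mean and SD beside them (n = 3 per group). The 3 knockout values of Vegfa, up to 178 RPKM, lie below all 3 control values, which start at 274 RPKM, while most other members overlap.

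Among the ligands, Vegfa encodes VEGF-A, the main VEGF of the podocyte. It had 131, 88.0 and 178 RPKM in knockout libraries 1 to 3, against 427, 331 and 274 RPKM in control libraries 1 to 3. Every knockout library was below every control library, with knockout replicate 2 the lowest and control replicate 1 the highest. The means were 132 ± 44.9 RPKM in knockout and 344 ± 77.5 RPKM in control libraries (SD, n = 3 each), a ratio of 0.385. The log2 change was −1.41 (SE 0.29, 95% interval −2.08 to −0.73, limma adjusted p = 0.0217). In bulk RNA, fewer cells of a type and less RNA per cell cannot be told apart. These values rest on 14970 to 72567 reads per library over a counted length of 4174 bp, so counting error is small beside the spread between libraries. The table gives 1 value per gene, so splice forms of VEGF-A are not separated. The call was lost without control replicate 1 (adjusted p = 0.0648), control replicate 2 (0.0542), knockout replicate 1 (0.0607) or knockout replicate 2 (0.0690), and the log2 change then ranged from −1.43 to −1.15 over these 4 fits. Relative to the median of all genes it was −1.51 as reported, −1.52 with median-of-ratios scaling and −1.45 with quantile normalization.

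Vegfa lies on chromosome 17 (46016993 to 46032377 in GRCm38, the assembly of the mm10 build named in the submitters' processing notes). KLF4 is a DNA-binding factor whose motif has the core GGGTG, so the 250 bases before the annotated start are shown for the ligand that fell and for Vegfb and Vegfc, whose start in the promoter table also coincides with the end of the annotated gene. Sequences are from RefSeq (GRCm38.p6), given 5′ to 3′ on the strand of the gene, in lower case with GGGTG or its reverse complement CACCC in capitals.
Vegfa, chr17:46032378-46032627, minus strand: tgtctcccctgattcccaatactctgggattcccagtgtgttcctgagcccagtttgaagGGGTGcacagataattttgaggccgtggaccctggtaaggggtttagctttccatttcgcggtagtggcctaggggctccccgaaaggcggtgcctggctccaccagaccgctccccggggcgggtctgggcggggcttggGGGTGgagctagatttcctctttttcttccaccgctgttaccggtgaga
Vegfb, chr19:6987652-6987901, minus strand: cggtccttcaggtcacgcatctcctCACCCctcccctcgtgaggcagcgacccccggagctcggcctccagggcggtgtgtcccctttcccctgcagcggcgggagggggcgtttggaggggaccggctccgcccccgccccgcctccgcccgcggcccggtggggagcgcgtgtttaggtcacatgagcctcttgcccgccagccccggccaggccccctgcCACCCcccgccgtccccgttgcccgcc
Vegfc, chr8:54077282-54077531, plus strand: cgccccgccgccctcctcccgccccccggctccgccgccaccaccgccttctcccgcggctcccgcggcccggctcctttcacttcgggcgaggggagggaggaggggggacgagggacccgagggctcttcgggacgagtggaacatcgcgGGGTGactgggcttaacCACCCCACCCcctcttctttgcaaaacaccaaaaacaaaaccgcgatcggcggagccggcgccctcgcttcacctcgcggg

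The core was found at 2 places before Vegfa, with first bases at −190 and −49 from the start site, at 2 before Vegfb (−225 and −27) and at 3 before Vegfc (−98, −81 and −76). It was present in 52.0% of 32851 promoter windows of the same length in the table, so its presence does not set these genes apart. The GC box GGGCGG, searched on both strands, was found 2 times before Vegfa, 4 times before Vegfb and 2 times before Vegfc, and shared no base with the core there. It was present in 32.7% of all windows. The hypoxia core ACGTG (16.6% of all windows) and the STAT motif TTCNNNGAA (7.02%) were not found in these 3 windows on either strand. A second Vegfa row, with its start site 7214 bases inside the annotated gene and its sequence not shown, held 1 hypoxia core, 1 KLF core and 1 GC box. The promoter table held rows for 7 of the 9 members, Flt1, Kdr, Pgf and Tek besides those shown. A match is a run of letters and not a binding site.

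None of the other VEGF ligands among the members passed the test. Vegfb, which binds VEGFR1 and is known for roles in cardiac and muscle tissue, had 35.1, 36.4 and 25.9 RPKM in knockout libraries, against 28.1, 17.7 and 30.1 RPKM in control libraries (log2 change 0.38, SE 0.23, adjusted p = 0.312). Vegfc, the ligand of the lymphatic receptor VEGFR3, had 12.6, 11.5 and 12.1 RPKM in knockout and 7.94, 12.9 and 9.07 RPKM in control libraries (0.29, SE 0.18, adjusted p = 0.334). The groups overlapped for both, and the knockout values of Vegfc all lay inside the control range. Pgf, placental growth factor, another ligand of VEGFR1, had 5.45, 8.91 and 10.9 RPKM in knockout and 8.67, 6.61 and 5.02 RPKM in control libraries (0.27, SE 0.28, adjusted p = 0.554). Its highest value was in knockout replicate 3 and its lowest in control replicate 3. The 95% intervals of the log2 changes ran from −0.16 to 0.91 for Vegfb, −0.14 to 0.72 for Vegfc and −0.38 to 0.93 for Pgf, so changes in either direction lie within them. Leaving out 1 library gave log2 changes from 0.14 (without control replicate 2) to 0.53 for Vegfb, from 0.15 (without control replicate 1) to 0.48 (without control replicate 2) for Vegfc, and from 0.073 (without knockout replicate 3) to 0.54 (without knockout replicate 1) for Pgf, which was 0.092 without control replicate 3 and 0.46 without control replicate 1.

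The VEGF ligands were also compared as shares, which in part restate the fall of Vegfa. Of the summed RPKM of Vegfa, Vegfb, Vegfc, Pgf and Figf (Vegfd), Vegfa made up 62.9%, 54.3% and 69.4% in knockout libraries, against 87.4%, 85.9% and 82.0% in control libraries. The groups did not overlap (exact permutation p = 0.1, two-sided, the smallest that 3 against 3 libraries allow). Vegfb made up 16.5% ± 6.17 in knockout and 6.44% ± 2.28 in control libraries, and Figf 11.3% ± 0.510 in knockout and 4.24% ± 0.712 in control libraries (SD, n = 3 each, exact permutation p = 0.1 for each). Shares within a sum are tied to each other, so a lower share of Vegfa raises the others.

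Among the VEGF receptors, Kdr encodes VEGFR2, the main signalling receptor of endothelial cells for VEGF-A. It had 202, 121 and 208 RPKM in knockout libraries, against 220, 400 and 283 RPKM in control libraries. The groups did not overlap, but knockout replicate 3 and control replicate 1 were close, at 208 and 220 RPKM. Means were 177 ± 48.8 RPKM in knockout and 301 ± 91.6 RPKM in control libraries (SD, n = 3 each), and the log2 change of −0.76 (SE 0.30, 95% interval −1.46 to −0.07) did not pass over all genes (limma adjusted p = 0.133). Flt1 encodes VEGFR1, which binds VEGF-A tightly and also occurs as a secreted form that traps it. It had 50.7, 36.9 and 63.8 RPKM in knockout libraries, against 63.1, 110 and 83.2 RPKM in control libraries. Knockout replicate 3 lay above control replicate 1, so the groups overlapped. The log2 change was −0.75 (SE 0.26, 95% interval −1.36 to −0.15, adjusted p = 0.0985), and the membrane and secreted forms are counted together.

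The angiopoietin receptor TIE2 is encoded by Tek on chromosome 4 (94739086 to 94874976). It had 70.7, 52.6 and 97.2 RPKM in knockout libraries, against 71.7, 126 and 94.2 RPKM in control libraries. The groups overlapped, and the log2 change was −0.41 (SE 0.27, adjusted p = 0.365). Its ligand Angpt2 had 31.2, 23.7 and 40.97 RPKM in knockout libraries and 27.6, 47.02 and 46.2 RPKM in control libraries, which also overlapped (−0.32, SE 0.27, adjusted p = 0.454). Angpt2 lies inside the span of Mcph1 on chromosome 8 (18690263 to 18741562), and the strand setting of the counting is not given in the sources used here. Mcph1 stood at 2.18 ± 0.390 RPKM in knockout and 1.30 ± 0.105 RPKM in control libraries (SD, n = 3 each), far below Angpt2. Kdr, Flt1, Tek and Angpt2 shared an order: in each of the 4 genes control replicate 2 was the highest library and knockout replicate 2 the lowest. The mean log2 value of the endothelial markers, described below, had the same highest and lowest library. Leaving out 1 library gave −0.63 to −0.19 for Tek and −0.57 to −0.13 for Angpt2, nearest to 0 for both without knockout replicate 2, with −0.20 for Tek without control replicate 2. Angpt2 gave −0.19 without control replicate 2, −0.21 without control replicate 3 and −0.57 and −0.52 without control replicate 1 and knockout replicate 3, and Tek −0.63 without knockout replicate 3.

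Angpt1 encodes angiopoietin 1, the activating ligand of TIE2, which mesangial cells and podocytes are known to make. It was the lowest of the 9 members, with 2.78, 2.85 and 1.54 RPKM in knockout libraries, against 1.04, 0.930 and 1.23 RPKM in control libraries. Every knockout library was above every control library, knockout replicate 3 by the least. The means were 2.39 ± 0.735 RPKM in knockout and 1.06 ± 0.150 RPKM in control libraries (SD, n = 3 each), a ratio of 2.25 that rests on 182 to 542 reads per library. The log2 change of 0.85 (SE 0.23, 95% interval 0.31 to 1.40) narrowly missed the threshold (limma adjusted p = 0.0521). It passed without knockout replicate 3 (1.09, adjusted p = 0.0175) and with no mean-variance trend (adjusted p = 0.0451). Quantile normalization gave 0.51 (adjusted p = 0.207), and over the fits without 1 library the adjusted p reached 0.193, without knockout replicate 2.

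**Figure D2:**
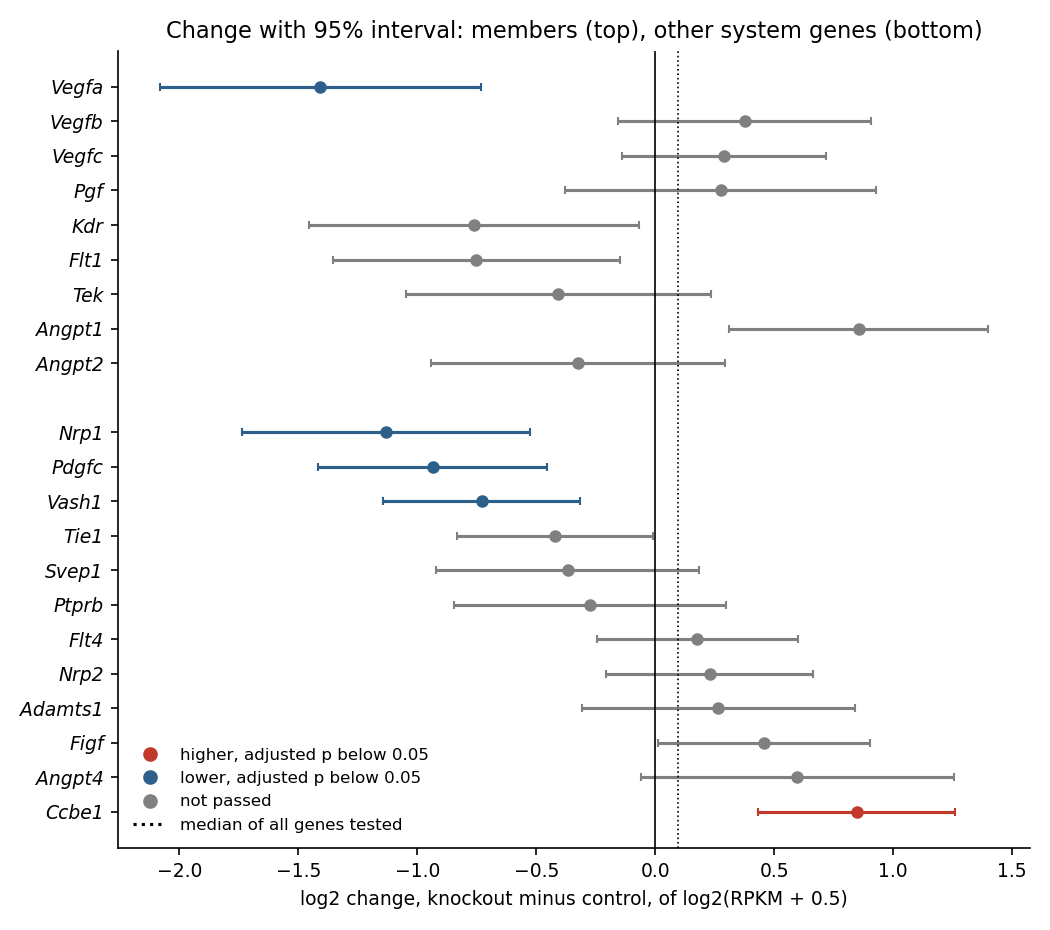
Log2 change of knockout minus control with its 95% interval for the 9 members (top) and the 12 tested genes of the list of other system genes, Pdgfc included (bottom). Colours mark genes past the test, and the dotted line is the median of all genes tested, 0.097. Vegfa, Nrp1, Pdgfc and Vash1 are lower and Ccbe1 is higher.

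In control libraries the members ranked Vegfa, Kdr, Tek, Flt1, Angpt2, Vegfb, Vegfc, Pgf and Angpt1, with mean levels of 344, 301, 97.1, 85.4, 40.3, 25.3, 9.97, 6.77 and 1.06 RPKM. In this order the control libraries of Vegfa and Kdr overlapped, as did those of Tek and Flt1, of Angpt2 and Vegfb, and of Vegfc and Pgf. Knockout libraries had 2 changes of place: Kdr, at 177 RPKM, stood above Vegfa, at 132 RPKM, and Vegfb, at 32.5 RPKM, above Angpt2, at 31.9 RPKM. The knockout ranges of both pairs overlapped. Within a library, Kdr stood above Vegfa in all 3 knockout libraries, while Vegfb stood above Angpt2 in knockout replicates 1 and 2 only.

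Ratios within a library remove its depth and compare ligands with receptors. There were 8 ratios, with p-values adjusted over the 8 by Benjamini-Hochberg, and with 3 against 3 libraries no exact p can fall below 0.1. Vegfa to Flt1 was 2.59, 2.39 and 2.79 in knockout libraries and 6.78, 3.01 and 3.30 in control libraries, which did not overlap (log2 difference −0.66, exact permutation p = 0.1, adjusted p = 0.16). Vegfa to Kdr was 0.649, 0.728 and 0.854 in knockout and 1.94, 0.826 and 0.969 in control libraries, which overlapped (−0.65, exact permutation p = 0.2, adjusted p = 0.267). Control replicate 1 carried much of both differences: without it they were −0.29 and −0.28. Pgf to Vegfa was 0.0416, 0.101 and 0.0612 in knockout and 0.0203, 0.0200 and 0.0183 in control libraries, a log2 difference of 1.71 (exact permutation p = 0.1, adjusted p = 0.16).

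The angiopoietin ratio lay further towards Angpt1 in knockout libraries. Angpt2 to Angpt1 was 11.2, 8.29 and 26.56 in knockout libraries and 26.57, 50.5 and 37.7 in control libraries, so knockout replicate 3 and control replicate 1 all but met (log2 difference −1.45, exact permutation p = 0.1, adjusted p = 0.16). Angpt1 to Tek was 0.0392, 0.0542 and 0.0159 in knockout and 0.0145, 0.00741 and 0.0130 in control libraries (1.53, exact permutation p = 0.1, adjusted p = 0.16). Angpt2 to Tek overlapped, at 0.437 ± 0.0143 in knockout and 0.417 ± 0.0645 in control libraries (exact permutation p = 0.5). Flt1 to Kdr was 0.287 ± 0.0317 in knockout and 0.285 ± 0.00978 in control libraries (exact permutation p = 1). Tek to Kdr was 0.417 ± 0.0603 in knockout and 0.324 ± 0.00967 in control libraries, without overlap (0.36, exact permutation p = 0.1, adjusted p = 0.16; SD, n = 3 each for these 3 ratios).

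**Figure D3:**
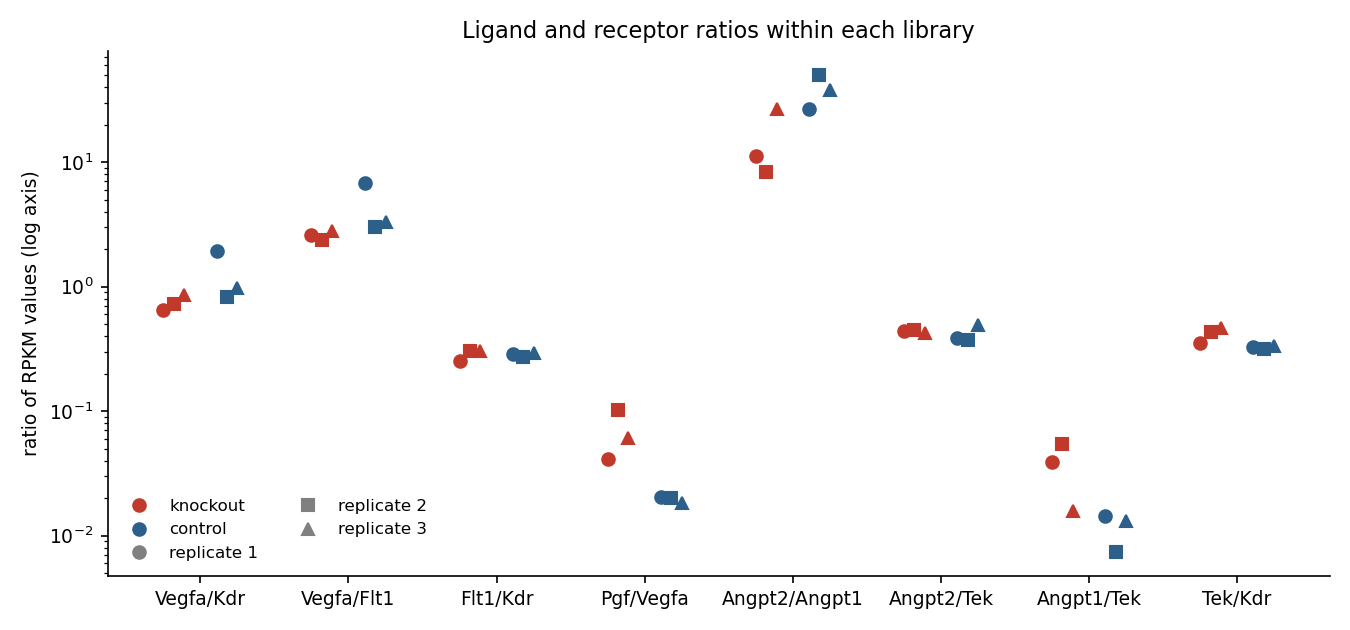
Ratio of RPKM values within each library (y axis, log scale) for the 8 ligand and receptor pairs, knockout left of control in each pair, 1 symbol per library. Pgf to Vegfa, Angpt1 to Tek and Tek to Kdr are higher in all knockout libraries, Vegfa to Flt1 and Angpt2 to Angpt1 are lower in all, and the other 3 overlap.

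Podocyte and endothelial markers were set beside the members. For comparison with the counts of both lists, 9.98% of all genes were higher and 3.48% lower. Of 24 podocyte markers tested, 12 were lower and 0 higher, with a median log2 change of −1.39, and their summed level was 1681 to 3444 RPKM in knockout and 4280 to 7621 RPKM in control libraries. Foxc2, a transcription factor of podocyte development, and Synpo, the actin-associated synaptopodin, fell (log2 changes −2.32 and −1.96, limma adjusted p = 2.90e-03 and 6.98e-03). So did Magi2, which links slit diaphragm proteins to the cytoskeleton (−2.01, adjusted p = 8.45e-03). The log2 change of Vegfa, −1.41, stood beside this median of −1.39. Against the mean log2 value of the podocyte markers in the same library, Vegfa stood 1.47, 1.57 and 1.57 higher in knockout libraries and 1.72, 1.41 and 1.85 higher in control libraries. The groups overlapped (log2 difference −0.12, exact permutation p = 0.5). The highest and the lowest library were the same for Vegfa and for the podocyte markers, control replicate 1 and knockout replicate 2.

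Of 23 endothelial markers, 1 was lower and 0 higher, with a median log2 change of −0.26 and a summed level of 2129 to 3277 RPKM in knockout and 3101 to 4175 RPKM in control libraries. The lower one was Cldn5, a tight junction claudin (−1.52, adjusted p = 0.0387), a call lost without any single library except control replicate 3. Gpihbp1, which anchors lipoprotein lipase on capillaries, and Vwf, von Willebrand factor, did not pass (log2 changes 0.89 and 0.66). Groups did not overlap for 5 endothelial genes with the knockout lower and 2 with the knockout higher. Over all genes tested, 11.4% were so separated with the knockout lower and 23.7% with the knockout higher. Among the lower endothelial genes, Ehd3, Emcn and Icam2, named after their values were seen, did not pass (−1.09, −0.91 and −0.61, adjusted p = 0.0641, 0.0711 and 0.0699). Against the mean log2 value of these markers, Kdr stood 1.85, 1.27 and 1.54 higher in knockout libraries and 1.86, 2.28 and 1.95 higher in control libraries (log2 difference −0.48, exact permutation p = 0.1). Flt1 gave −0.47 in the same way, without overlap (exact permutation p = 0.1), while Tek gave −0.12 (exact permutation p = 0.5) and Angpt2 −0.039 (exact permutation p = 0.9). Vegfa stood lower against the endothelial markers in every knockout library (−1.12, exact permutation p = 0.1). Vegfc and Angpt1 stood higher against them in every knockout library (0.58 and 1.14, exact permutation p = 0.1 for each). Against the podocyte markers, whose own level differed by −1.29, so did Vegfb, Vegfc, Pgf, Tek, Angpt1 and Angpt2. Their log2 differences were 1.66, 1.57, 1.56, 0.88, 2.14 and 0.96 (exact permutation p = 0.1 for each). Over both marker lists there were 18 such comparisons, and a p of 0.1 became 0.164 after adjustment over them.

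**Figure D4:**
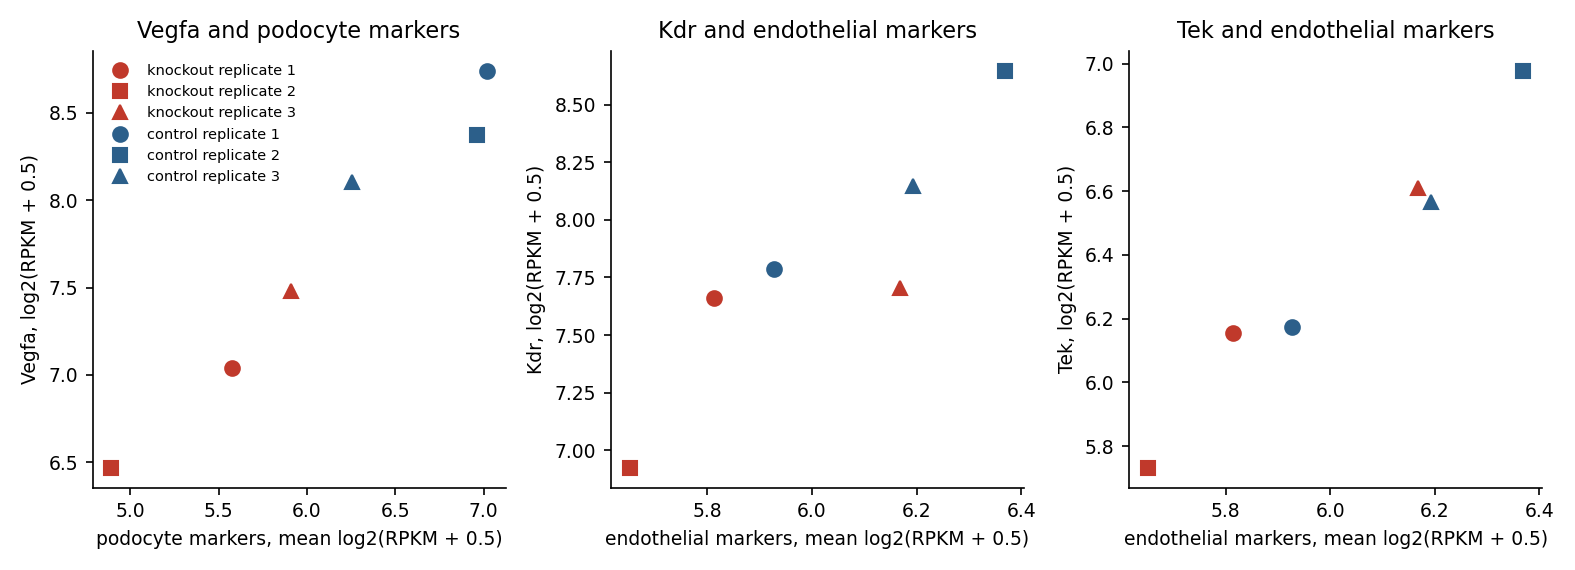
Log2(RPKM + 0.5) of Vegfa against the mean of 24 podocyte markers, and of Kdr and Tek against the mean of 23 endothelial markers, 1 point per library (n = 6). Knockout replicate 2 is at the lower left in all 3 panels. Knockout and control libraries of Tek interleave along the endothelial level.

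The rest of the VEGF and angiopoietin system held 13 genes in the table, of which 12 were tested. Of these, 1 was higher and 3 lower, with a median log2 change of −0.05. Of all genes tested, 9.98% were higher and 3.48% lower, with a median of 0.097. Nrp1 encodes neuropilin 1, a co-receptor that presents VEGF-A to VEGFR2 and also binds class 3 semaphorins. It had 244, 169 and 258 RPKM in knockout libraries, against 381, 617 and 479 RPKM in control libraries, and was lower (−1.13, SE 0.26, limma adjusted p = 0.0314). Pdgfc, a platelet-derived growth factor ligand, was lower at 14.2 ± 4.26 RPKM in knockout and 27.1 ± 3.05 RPKM in control libraries (−0.94, SE 0.21, adjusted p = 0.0275). Vash1, vasohibin 1, an inhibitor of angiogenesis made by endothelial cells, was lower at 6.86 ± 1.61 RPKM in knockout and 11.6 ± 1.07 RPKM in control libraries (−0.73, SE 0.18, adjusted p = 0.0376; SD, n = 3 each). Each of these 3 calls was lost when control replicate 2, control replicate 3 or knockout replicate 2 was left out. Leaving out knockout replicate 1 also ended the calls of Nrp1 and Vash1, control replicate 1 those of Pdgfc and Vash1, and knockout replicate 3 that of Pdgfc. With no filter Nrp1 and Vash1 did not pass.

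Ccbe1, a secreted protein needed to activate VEGF-C, was the higher gene. It had 2.10, 1.88 and 1.90 RPKM in knockout libraries, against 1.11, 0.746 and 0.778 RPKM in control libraries (0.85, SE 0.18, limma adjusted p = 0.0236). Quantile normalization ended this call, as did leaving out control replicate 2 or 3 or knockout replicate 1 or 2. Of its pathway, Figf (Vegfd), the other ligand of VEGFR3, had 23.7 ± 6.13 RPKM in knockout and 16.7 ± 0.558 RPKM in control libraries (0.46, adjusted p = 0.157), and Flt4 (VEGFR3) 14.5 ± 2.95 RPKM in knockout and 12.7 ± 1.66 RPKM in control libraries (0.18, adjusted p = 0.555; SD, n = 3 each). Lymphatic markers were scarce: Lyve1 was at most 0.179 RPKM in any library, Prox1 at most 0.694 RPKM, and Ccl21a was listed at 0 in all 6. Only Flt4 and Pdpn, which podocytes also express, passed the filter among 7 lymphatic genes, and neither passed the test.

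The remaining genes of the system did not pass. Tie1, the partner receptor of TIE2, had 88.6, 75.2 and 113 RPKM in knockout and 111, 131 and 124 RPKM in control libraries (−0.42, adjusted p = 0.157). Ptprb, the phosphatase that restrains TIE2, had a log2 change of −0.28 and Svep1, an extracellular ligand of TIE1, of −0.37. Nrp2, the co-receptor for VEGF-C, and Adamts1, a protease that binds VEGF-A, had log2 changes of 0.23 and 0.27. Angpt4, a further TIE2 ligand, stood at 1.31 ± 0.661 RPKM in knockout and 0.641 ± 0.0586 RPKM in control libraries (0.60, adjusted p = 0.2; SD, n = 3 each). Vash2 was under the filter, with at most 0.492 RPKM in any library.

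Genes that endothelial cells are known to induce or use in response to VEGF were in part higher in knockout libraries, where Vegfa was lower. Of 18 genes of the tip cell and VEGF response list tested, 4 were higher and 0 lower, with a median log2 change of 0.076. The whole set of tested genes had 9.98% higher and 3.48% lower, with a median of 0.097. By its median the list thus did not stand above all genes, and the rise was limited to some of its genes. The genes that did not pass had changes in both directions. Those with the most negative log2 changes were Nr4a1, Unc5b and Dll4 (−0.60, −0.52 and −0.51). Apln encodes apelin, a peptide of endothelial tip cells, and Aplnr its receptor. Apln had 4.24, 6.55 and 7.03 RPKM in knockout libraries, against 0.594, 0.532 and 0.375 RPKM in control libraries. It was higher 11.9-fold (2.66, SE 0.22, limma adjusted p = 2.06e-03), and the groups were far apart, with 4.24 RPKM the lowest knockout and 0.594 RPKM the highest control value. Aplnr had 13.8, 11.4 and 16.2 RPKM in knockout and 3.24, 5.98 and 3.00 RPKM in control libraries (1.69, SE 0.26, adjusted p = 8.67e-03).

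Adamts9, a secreted metalloprotease, rose as well, with 7.44, 8.92 and 9.85 RPKM in knockout and 3.73, 3.25 and 2.26 RPKM in control libraries (1.38, SE 0.20, limma adjusted p = 7.23e-03). Apln, Aplnr and Adamts9 kept their calls under all 15 alternatives, the fits without 1 library included. The fourth, Rcan1, a calcineurin inhibitor named after its value was seen, was higher (0.75, adjusted p = 0.0459) but lost the call under 11 of 15 alternatives. Leukocyte and parietal epithelial markers were mostly higher in the same libraries, in which 9.98% of all genes were higher. Of 17 leukocyte genes tested 14 rose, with sums of 682 to 1605 RPKM in knockout and 118 to 131 RPKM in control libraries. S100a8 and S100a9 went the other way, lower in every knockout than in any control library, and did not pass (log2 changes −1.76 and −1.46). Of 15 parietal genes 11 rose, with sums of 387 to 743 RPKM in knockout and 130 to 158 RPKM in control libraries, while Ncam1 stood lower in every knockout library. Some counted genes passed the filter of 0.5 RPKM only through the knockout libraries, which raises these counts. Examples are Emr1 and Cdh6, with control means of 0.151 and 0.292 RPKM. The part of leukocyte and parietal cells in the rise of Apln, Aplnr and Adamts9 was not tested.

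Of 23 intracellular transducers of VEGFR2 and TIE2 tested, 1 was higher and 1 lower, beside 13.5% of all genes called in either direction, with a median log2 change of −0.077. Fyn, a Src-family kinase that also phosphorylates nephrin in podocytes, fell to 24.2 ± 4.31 RPKM in knockout libraries, against 49.9 ± 7.64 RPKM in control libraries (−1.03, SE 0.17, limma adjusted p = 0.0116). Src, the founding kinase of that family, was higher at 16.4 ± 3.98 RPKM in knockout and 8.71 ± 1.14 RPKM in control libraries (0.86, SE 0.19, adjusted p = 0.0284; SD, n = 3 each). Leaving out any 1 library but knockout replicate 3 ended the call of Src. Shb, an adaptor of VEGFR2, had a log2 change of 0.73 and missed the threshold (adjusted p = 0.0522).

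Vegfa is a classic target of hypoxia-inducible factors, so hypoxia response genes were set beside it. Of 21 tested, 1 was higher and 1 lower, with a median log2 change of 0.15. All genes tested had 9.98% higher and 3.48% lower, 13.5% together, with a median of 0.097. Ankrd37, an ankyrin-repeat gene, was higher (0.89, SE 0.22, limma adjusted p = 0.0408), and Car9, carbonic anhydrase 9, was lower (−1.17, SE 0.31, adjusted p = 0.0460). Both calls were lost under most alternatives, 10 of 14 for Ankrd37 and 9 of 15 for Car9. Egln3, an oxygen-sensing prolyl hydroxylase, had a log2 change of 0.90 (adjusted p = 0.0561).

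**Figure D5:**
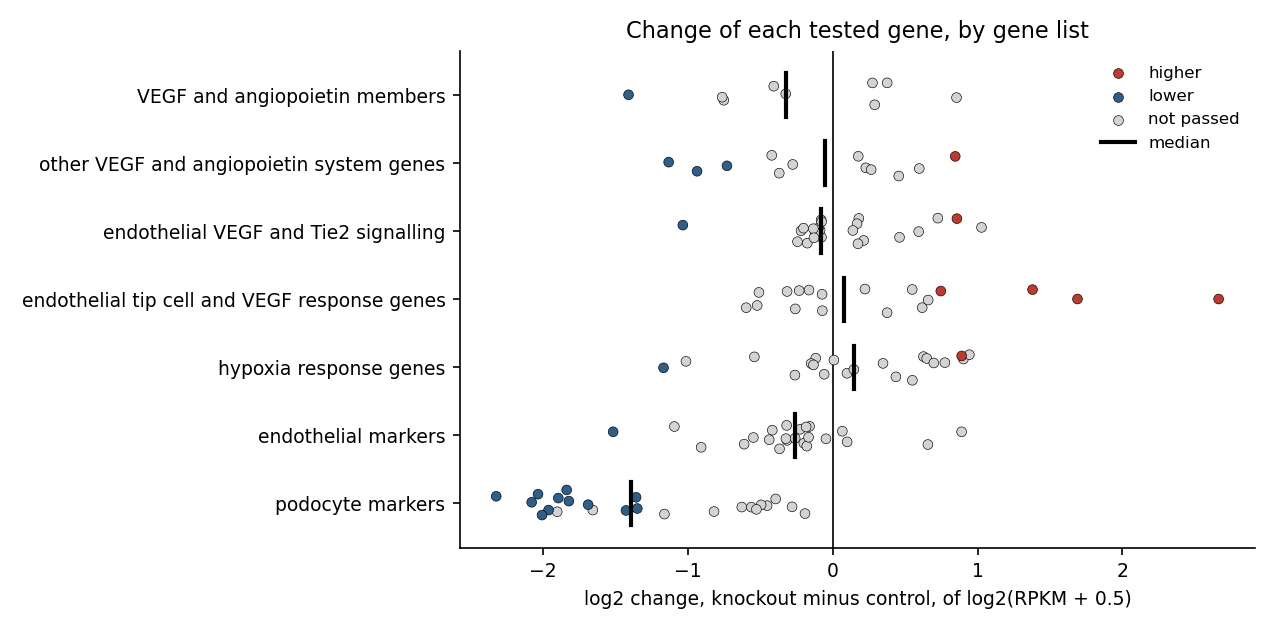
Log2 change of knockout minus control (x axis) for each tested gene of 7 gene lists, coloured where the gene passed the test, with the median of each list as a bar. The members centre at −0.32 and endothelial markers at −0.26, podocyte markers at −1.39, and the calls in the tip cell and VEGF response list, led by Apln at 2.66, are all higher.

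Other cells of the preparation were read from marker lists, whose counts stand beside 9.98% of all genes higher and 3.48% lower. Of 17 mesangial and mural genes, 2 were higher and 4 lower (median −0.54), with sums of 1100 to 1513 RPKM in knockout and 1415 to 2026 RPKM in control libraries. The smooth muscle gene Tagln rose (2.46, limma adjusted p = 0.0103), and Sfrp2, a Wnt modulator, and Ptn, pleiotrophin, fell (−1.41 and −1.03, adjusted p = 0.0166 and 0.0281). Without knockout replicate 2 Sfrp2 and Ptn did not pass, nor did Ptn without control replicate 2 or 3. These markers stand beside Angpt1, and their part in its values was not tested. Parietal genes with the smallest p were Aldh1a1, Cd44 and Cldn1 (2.55, 4.29 and 2.65), and leukocyte genes were H2-Ab1, Cd74 and H2-Aa (3.98, 3.81 and 3.53). Of 14 proximal tubule genes, 1 was higher and 1 lower, with sums of 4222 to 10549 RPKM in knockout and 4511 to 11715 RPKM in control libraries, so tubule RNA was present in both groups. The 2 called were Slc5a12, higher (1.88), and Slc7a13, lower (−2.35), while Pck1 did not pass (−1.12). The call of Slc5a12 was lost without knockout replicate 2 and that of Slc7a13 without any 1 library but knockout replicate 1. Of 15 genes of distal segments from the loop to the collecting duct, 1 was higher, with a median log2 change of 1.20 and sums of 1087 to 2869 RPKM in knockout and 485 to 1367 RPKM in control libraries. It was Cldn16 (2.02, lost without knockout replicate 1 or 2), and Scnn1b and Scnn1g did not pass (1.42 and 1.56).

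Genes with the most similar pattern were found by Pearson correlation of log2(RPKM + 0.5) over the 6 libraries, as a description, since libraries share group and composition and many genes score high. For Vegfa they were Klhl8, Ntrk3 and Arhgef18 (r of 0.999, 0.999 and 0.998), and 319 genes lay above 0.95. For Kdr they were Car8, Fat1 and Slc29a1 (0.996, 0.989 and 0.986), for Flt1 Gucy1b3, Gna11 and Nek9 (0.998, 0.996 and 0.994), and for Tek Tcf4, Notch1 and Prkab2 (0.997, 0.996 and 0.995). Angpt2 was closest to Lbx2, Pla2r1 and Galnt18 (0.995, 0.993 and 0.991), and Angpt1 to Id2, Vps29 and Tmem70 (1.00, 0.999 and 0.999). Vegfb was closest to Anapc7, Kdf1 and Map2k6 (0.998, 0.997 and 0.996), Vegfc to Tap1, Wdfy2 and Rab21 (0.990, 0.990 and 0.987), and Pgf to Usp54, Morc2a and 6330549D23Rik (0.987, 0.978 and 0.977). Pgf had the fewest genes above 0.95, 14, and Angpt1 the most, 544.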

How the data were processed

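Total RNA of magnet-isolated glomeruli was sequenced in 6 libraries. The deposited values are RPKM, 1 column per library. The tools named per the submitters' processing notes are STAR, featureCounts, edgeR and FastQC, on the mm10 build. Versions, annotation, strand setting and filters: not given in the sources used here. Of 24062 rows, 27 carry a calendar date in place of a symbol (0.233% to 0.269% of counted reads) and were left out. Reads were recovered from the RPKM steps: 100% of rows came out whole within 0.001 read. Intervals drawn from reads cover counting error only.

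Of the named genes, those averaging 0.5 RPKM or more across all libraries entered the test, on log2(RPKM + 0.5) with limma 3.58.1 (R 4.3.3), with a mean-variance trend, two-sided, at an adjusted p of 0.05. The fit was tested on simulated data. Ratios and marker-relative values used exact permutation tests (SciPy 1.17.1). The labels do not pair libraries by replicate number, and the main test did not pair them. Alternatives were 2 pseudocounts, 2 filters, 2 scalings, no trend, limma-voom on recovered reads, a replicate block and leaving out each library. The members and lists were chosen with earlier results of these data known. Named are the 9 members, Klf4, the other system genes, the 3 smallest p of each list and the 3 genes nearest to each member. Also named are Mcph1, whose span holds Angpt2, and the lymphatic genes Lyve1, Prox1 and Ccl21a. Rcan1, Nr4a1, Unc5b, Dll4, Ehd3, Emcn, Icam2, S100a8, S100a9, Ncam1, Emr1 and Cdh6 were named for their values.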

Additional observations from a re-analysis of the deposited data

How the results depend on the processing

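Counts here are genes passing limma. Sign changes of named genes, ratios and marker-relative values are given below, beside that of the all-gene median in the report. With pseudocount 0.1, 0 proximal tubule genes were lower. With no filter, 1194 of 19468 genes tested were higher and 337 lower. Lower counts were then 1 for the other system genes, 0 hypoxia, 0 endothelial, 7 podocyte, 1 mesangial and 0 proximal tubule. Higher counts were 0 hypoxia, 1 endothelial and 1 mesangial. With a filter at 2 RPKM, 841 of 11677 genes tested were higher and 350 lower. In that fit 0 of the other system genes were higher, 0 hypoxia genes were higher and 0 lower, and 0 proximal tubule genes were lower. Angpt1 was then not tested. Median-of-ratios scaling gave 0 hypoxia genes higher, 2 endothelial and 0 proximal tubule genes lower, and a Klf4 log2 change of −0.093. Quantile normalization gave 849 genes higher and 798 lower, 0 other system and 0 hypoxia genes higher, 1 parietal gene lower, and a Klf4 log2 change of −0.0098. With no trend, 1366 of all genes were higher and 443 lower. In that fit 1 member was higher, Angpt1 (0.85), and 1 endothelial gene was higher, 2 endothelial and 0 proximal tubule genes lower. Limma-voom on recovered reads gave 1339 genes higher and 455 lower, 0 hypoxia genes higher and 0 lower, and 1 endothelial gene higher and 2 lower. The cause of these changes was not tested.

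Same-numbered libraries did not deviate together (correlations 0.17, −0.22 and −0.46), and libraries with other numbers gave −0.38 to 0.50. The labels give no pairing, and these correlations, from deviations within groups of 3, cannot exclude one. With a replicate block, 632 genes were higher and 179 lower, 0 members were lower, and Vegfa kept −1.41 with adjusted p = 0.0626. The block left 0 other system, 0 signalling and 0 hypoxia genes higher or lower, 0 endothelial, 6 podocyte and 0 mesangial genes lower, and 1 mesangial and 0 distal segment genes higher.

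Leaving out 1 library at a time gave 526 to 1536 genes higher and 127 to 619 lower, lowest without knockout replicate 2 and highest without knockout replicate 3. Members were higher in 0 to 1 and lower in 0 to 1 cases. The other system genes had 0 to 1 higher and 0 to 2 lower, signalling genes 0 to 3 higher and 1 lower, response genes 3 to 4 higher and 0 to 1 lower, and hypoxia genes 0 to 1 in each direction. Among markers, endothelial genes had 0 to 1 higher and 0 to 2 lower, podocyte genes 6 to 15 lower, mesangial genes 1 to 3 higher and 0 to 4 lower, parietal genes 10 to 12 higher, leukocyte genes 10 to 14 higher, proximal tubule genes 0 to 1 in each direction and distal segment genes 0 to 8 higher. The Vegfa log2 change ran from −1.65 to −1.15, the Angpt1 log2 change from 0.73 to 1.09 and the Klf4 log2 change from −0.35 (without control replicate 1) to 0.24, negative also without knockout replicate 2 (−0.054) or 3 (−0.071). The log2 difference of the ratio Flt1/Kdr ran from −0.043 to 0.10, negative without control replicate 2 (−0.02), knockout replicate 2 (−0.039) or 3. Angpt2 against endothelial markers, log2 difference, ran from −0.17 to 0.065, positive without control replicate 3 or knockout replicate 2 (0.043). With 3 libraries per group no ratio could reach an exact p below 0.1, and low genes such as Angpt1 rest on few reads.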
